A study of Mus musculus with 12 samples.

Results

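The step from expanding neural precursors (step 4) to differentiated cells (step 5) was followed in unsorted cells, the control cells of the study, which had passed through no enrichment. Members were the arrays labelled step 5 control (3) and step 4 control (3), 6 of the 12 arrays in all. The study set cells sorted magnetically for PSA-NCAM, a form of the neural cell adhesion molecule bearing polysialic acid and found on young neurons, against such unsorted cells at both steps. Every sample came from C57BL/6 mouse embryonic stem cells (mESC) carrying eGFP under an actin promoter. They had been grown on fibroblast feeder cells, which were removed with beads before embryoid bodies formed over 4 days, attached for 24 h and entered 6 days of serum-free selection. At step 4 the cells were then kept for 5 days on laminin with N2 supplement and bFGF at 10 ng/ml. At step 5 bFGF was taken away, B27 replaced N2, ascorbic acid was added at 200 µM, and the cells were grown for a further 7 days, so those changes cannot be told apart. RNA of each sample, labelled with Cy5 from 100 ng, was hybridised with Cy3-labelled mESC RNA as a common reference, without dye swaps. Each value below is a log2 ratio of sample to mESC, or, where called a difference, step 5 minus step 4 of such ratios. The labels name 1 mESC source for all samples and call the 3 samples of a group biological replicates.

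Neural precursors divide while Notch signalling between neighbouring cells holds them back from becoming neurons, and bFGF keeps them in cycle through the MAP kinase pathway. When the growth factor is removed, such cultures leave the precursor state and form neurons, then astrocytes and oligodendrocytes. Cultures from embryoid bodies also carry cells of other germ layers, and an unsorted sample is read as their sum. Because RNA was taken from whole cultures, fewer cells of a type and less RNA per cell cannot be told apart in any value here.

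Replicates 1, 2 and 3 of both steps lay on slides 1, 2 and 3, and the slide 2 arrays stood apart from the others. The step 4 array of slide 2 correlated at r = 0.922 over genes with the step 5 array of slide 2, but at 0.739 and 0.793 with the other step 4 arrays. The 20523 genes behind these values are not independent replicates. Endoderm genes had median ratios of -0.08, 1.22 and 0.19 on the step 4 arrays of slides 1, 2 and 3 and of 0.11, 1.56 and 0.50 at step 5, and muscle genes 0.52, 1.47 and 0.44 and 0.35, 1.57 and 0.52. The neuronal cytoskeleton list had 1.45, 0.69 and 2.18 at step 4 and 1.17, 0.11 and 1.16 at step 5. Slide 2 was thus highest in endoderm and muscle genes and lowest in neuronal genes at both steps. It was also the slide scanned on another day and read with another version of the scanner software. The part of these differences in the results was not tested, so values are given slide by slide and without replicate 2.

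The label of neural precursors was set against defining markers. At step 4 the precursor genes Nes (2.43, 1.40 and 1.91) and Fabp7 (5.95, 5.10 and 6.33) were above mESC on all 3 slides, and so was Sox1, whose step 5 values were 1.19, 0.36 and 0.99. Sox2, which stem cells share with precursors, was below mESC at step 4 (-1.18, -1.87 and -1.36), and Pax6 was at 0.50, 0.05 and 0.84. The stem cell gene Pou5f1, which encodes Oct4, lay at -0.62, -0.71 and -0.67 at step 4 and -0.50, -0.70 and -0.86 at step 5. These are ratios below mESC by less than 2-fold, and the step difference of -0.02 (SE 0.48), which became 0.04 with arrays scaled to a common spread, was within its error. The microglial gene Csf1r and the endothelial gene Cdh5 were above mESC on all 6 arrays, most so on slide 2. Pecam1, the other endothelial marker, was not, with -0.34, -0.33 and -0.37 at step 4 and -0.21, -0.30 and 0.02 at step 5. Aif1, another microglial marker, was not tested.

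By limma on all 12 arrays, 0 of 20608 genes passed an adjusted p of 0.05 between the steps in unsorted cells, in either direction. The lowest adjusted p was 0.138. At an unadjusted p under 0.05 there were 1304 genes higher at step 5 (6.33%) and 529 lower (2.57%). Since arrays of 1 number deviated together, the 6 arrays were also fitted with the replicate number as a block, and 3 genes rose (0.0146%) and 2 fell (0.0097%), with 2524 (12.2%) and 1463 (7.1%) at an unadjusted p under 0.05. Leaving replicate 2 out of both groups gave 144 rises (0.699%) and 29 falls (0.141%) on 10 arrays, and 58 (0.281%) and 2 (0.0097%) on the 4 control arrays alone. The calls of 10 and of 4 arrays shared 43 genes. None of the 5 genes of the paired fit was among the 173 of 10 arrays, of which 145 had the same sign on slide 2, while Mgp was among those of 4 arrays (limma adjusted p = 0.049). Without the step 5 array of slide 2 alone the counts were 341 and 44, and without the step 4 array of slide 1 alone 56 and 2. The number of arrays limits the precision, and below a gene is said to have risen or fallen only in a named fit. A call without replicate 2 means the fit of 10 arrays. It compares replicates 1 and 3 of the control groups alone, and its error is shared with all enriched arrays, replicate 2 included. Of the genes named below with such a call, Gfap, Gpr17, Dynlrb2, Dcn, Lum, Fap, Col6a2, Col14a1, Rpl39l, Rhox2h and Rhox2c also passed on 4 arrays, and the others did not. The 5 fits are those of 12 arrays with and without the block, the paired fit, and those of 10 and 4 arrays without replicate 2.

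As a description beside those tests, 4830 genes were higher on all 3 slides (23.4%) and 4204 lower (20.4%). All 3 step 5 arrays lay above all 3 step 4 arrays for 1522 genes (7.39%) and below them for 1111 (5.39%). A difference of at least 2-fold on each slide was found for 70 genes higher (0.34%) and 14 lower (0.0679%). The differences of slides 1 and 3 correlated at r = 0.668 over genes, those of slides 1 and 2 at 0.358 and those of slides 2 and 3 at 0.443. Of 50 gene lists, 18 had a median above 0 on all 3 slides and 10 a median below 0, where the median of all genes tested was 0.01.

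The gene with the smallest p in the paired fit was Hes5, a transcriptional repressor that Notch signalling switches on in neural stem cells. Its ratio to mESC was 3.80, 1.98 and 4.54 on slides 1, 2 and 3 at step 4 and 1.28, -0.58 and 1.74 at step 5. The groups did not overlap, and slide 2 was lowest at both steps while its difference was as large as that of the others (-2.52, -2.55 and -2.80). Hes5 fell by 2.63 on the log2 scale, 6.17-fold, in the paired fit of 6 arrays (SE 0.10, n = 3 pairs, limma adjusted p = 0.0336). In the fit without pairing, where the spread between slides counts as error, the SE was 0.92 and the adjusted p 0.394. The probe lies at chr4:154336347-154336406 of mm9. Of the 5 genes past the paired fit, 3 had a promoter in the RefSeq table used here, and Mgp and Scrg1 are named only.

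The promoter of Hes5 is shown because the gene is the textbook target of RBPJ, the DNA-binding partner of the Notch receptor, and Hes6 beside it as a family member that was also lower. The 250 bases before each start are from RefSeq (GRCm38.p6), at chr4:154960673-154960922 on the plus strand for Hes5 and chr1:91414039-91414288 on the minus strand for Hes6, and capitals mark the RBPJ core TGGGAA or its reverse complement TTCCCA.
Hes5: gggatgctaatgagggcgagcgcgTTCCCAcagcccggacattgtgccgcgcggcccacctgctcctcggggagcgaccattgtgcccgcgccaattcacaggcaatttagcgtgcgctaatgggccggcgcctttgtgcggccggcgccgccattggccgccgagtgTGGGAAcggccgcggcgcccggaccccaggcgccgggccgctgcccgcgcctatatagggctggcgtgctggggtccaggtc
Hes6: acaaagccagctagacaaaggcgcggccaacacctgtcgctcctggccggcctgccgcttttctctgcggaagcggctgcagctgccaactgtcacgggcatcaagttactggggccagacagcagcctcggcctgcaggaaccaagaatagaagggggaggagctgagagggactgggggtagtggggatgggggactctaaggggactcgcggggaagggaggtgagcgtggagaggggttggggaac
The Hes5 window held 2 matches, which begin 226 and 82 bases before the start, and the Hes6 window none. Of 32851 RefSeq promoter windows of this length, 21.6% held the core on either strand. Among the Notch list it was in 4 of 24 windows (16.7%), which belong to 3 of 19 genes. A match is a description of the letters and not a binding site.

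Around Hes5, the Notch list had 11 of 23 tested genes lower on all 3 slides and 2 higher, against 20.4% and 23.4% of all genes. The list had 8 below without overlap, against 5.39%. Its median difference was -0.24 (-0.15, -0.12 and -0.40 on slides 1, 2 and 3). Among the ligands, Dll1 went from 1.01, 0.79 and 1.67 to -0.22, 0.56 and -0.19 and Dll3 from 1.25, 0.42 and 1.27 to -0.33, -0.31 and -0.67. Both were lower on every slide without overlap, least so on slide 2. Mfng, a glycosyltransferase that modifies Notch receptors, went from 0.21, -0.85 and 0.38 to -2.24, -1.63 and -2.50, a difference of -2.04 (SE 0.47, limma adjusted p = 0.178). Hes6, of the same family as Hes5, stood at 1.50, 0.48 and 1.57 and then at -0.20, -0.40 and -0.70. Without replicate 2 Hes6 fell by 1.99 (SE 0.31, limma adjusted p = 0.0289), the only gene of the list past that fit, and on 4 arrays Mfng passed in its place (limma adjusted p = 0.0324; 0.069 for Hes6). Nrarp, a feedback inhibitor of the Notch complex, had slide differences of -0.99, -0.53 and -0.94. The receptor gene Notch1 was not lower, with 0.02, 0.21 and 0.18, and with Cy5 quantile-normalized alone its mean difference was -0.07.

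**Figure D1:**
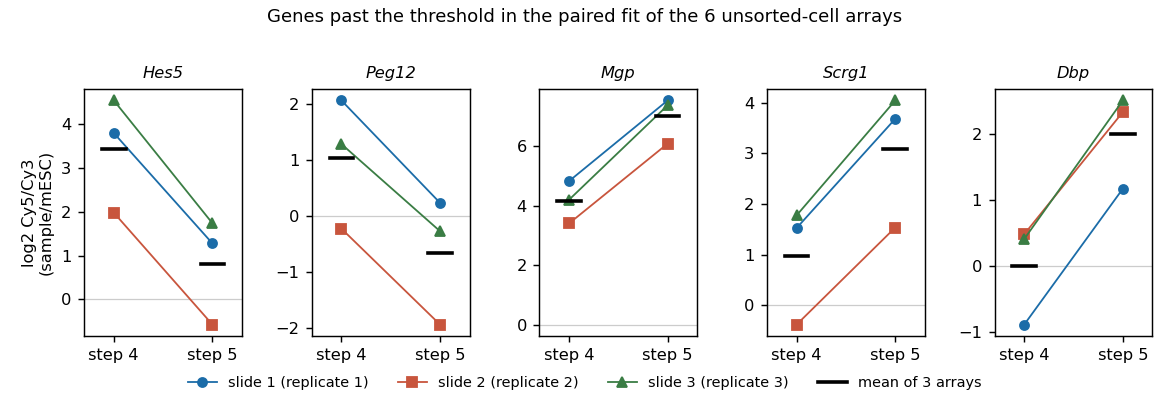
Log2 ratio of sample to mESC (y axis) at step 4 and step 5 (x axis) for the 5 genes past the threshold in the paired fit of the 6 arrays; each line joins the arrays of 1 slide and black bars are means of 3 arrays. The lines of a gene run nearly parallel, while the slides differ in level, as for Hes5 with 3.80, 1.98 and 4.54 at step 4.

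The other fall in the paired fit was that of Peg12, a paternally expressed gene of the Prader-Willi region. It went from 2.07, -0.23 and 1.29 to 0.23, -1.94 and -0.27, with slide differences of -1.83, -1.72 and -1.56 (paired fit -1.70, SE 0.10, limma adjusted p = 0.0498), and the groups overlapped through slide 2. Its other probe, above background on 5 of 6 arrays, had a mean difference of -0.43. The 3 rises were those of Mgp, which encodes an inhibitor of calcification made by cartilage and vessel walls, of Scrg1 and of Dbp, a clock-controlled transcription factor.

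Mgp was at 4.82, 3.40 and 4.20 at step 4 and at 7.54, 6.08 and 7.37 at step 5, so all step 5 arrays were above (paired fit 2.86, SE 0.13, a 7.25-fold rise, limma adjusted p = 0.0336). Scrg1 went from 1.53, -0.38 and 1.78 to 3.68, 1.54 and 4.05 (paired fit 2.12, SE 0.11, limma adjusted p = 0.0336). Slide 2 was the low one at both steps, so the groups overlapped although each slide rose by about as much. Dbp went from -0.88, 0.48 and 0.41 to 1.17, 2.33 and 2.51 without overlap (paired fit 2.00, SE 0.10, limma adjusted p = 0.0336), its other probe had 2.16, and here slide 1 was the low one. Per1, another clock gene that also answers glucocorticoids, had slide differences of 1.24, 0.75 and 0.63. With all 12 arrays and the same block, 1 gene rose (0.00485%), Ecrg4, which encodes the secreted peptide augurin, from 2.63, 1.54 and 1.32 to 4.53, 3.95 and 3.73 (difference 2.24, SE 0.18, limma adjusted p = 0.018).

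Transcription factors of neural precursors and of neurons in formation were lower at step 5. Of 23 neurogenic factors 15 were lower on all 3 slides and 4 higher (median -0.65, and -0.42, -0.29 and -1.38 on slides 1, 2 and 3). In the list for neural stem cells and radial glia, 29 genes were tested, and 17 were lower and 3 higher (median -0.28; -0.42 without replicate 2). None of the first list and none of the second passed in the 5 fits beyond Hes5, which stands in the stem cell list.

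Dbx1, a homeobox factor of a band of progenitors in brain and spinal cord, went from 3.93, 3.09 and 4.79 to 1.66, 0.30 and 1.05. This was the largest mean difference downwards among the genes named here (-2.93, SE 0.71), and the arrays did not overlap. Robo3, which steers commissural axons across the midline, went from 1.95, 1.41 and 2.83 to 0.20, -0.16 and 0.20. Sox3, a factor of proliferating neural progenitors, had slide differences of -1.46, -1.65 and -2.11, and Sox11, of neurons in formation, -0.91, -1.27 and -2.91. Lhx5 (-1.16, -1.04 and -1.91) and Lhx1 (-0.54, -1.15 and -2.06), both factors of early interneurons, were lower too. Insm1, of dividing neuron progenitors, had -1.62, -0.38 and -2.63. Slide 3, which had the highest neuronal genes at step 4, had the largest difference in each of these genes. With a replicate block on the 4 arrays of slides 1 and 3, Sox3 and Insm1 fell (limma adjusted p = 0.0402 and 0.0489). That setting was chosen after the data were seen, rests on the pairs of those slides alone and called 529 genes higher and 81 lower.

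Tox3, a chromatin protein gene, was among those that fell without replicate 2. It was at 2.90, 2.12 and 3.53 and then at 1.18, 1.05 and 1.09 (-2.08, SE 0.28, limma adjusted p = 0.0164). Fgf15, a growth factor gene of the developing forebrain, went from 1.58, -0.30 and 1.75 to -0.20, -0.44 and -0.58. Slide 2 was already at the step 5 level at step 4, so the fall of Fgf15 without replicate 2 (-2.05, SE 0.32, limma adjusted p = 0.0289) concerned slides 1 and 3. Dach1 (-0.76, -1.48 and -1.49) and Otx2 (-0.62, -1.04 and -1.50), factors of early brain regions, and Epha7 (-0.78, -0.87 and -0.89), a receptor in axon guidance, were lower without overlap and passed in none of the 5 fits, though Epha7 fell with arrays scaled to a common spread and with slide as a random block (limma adjusted p = 0.0470 and 0.0497).

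Removal of bFGF was followed through genes that the FGF and MAP kinase pathway switches on as its own brakes and effectors. Of 21 such genes 12 were lower on all 3 slides and 3 higher, with a median of -0.45 (-0.41, -0.55 and -0.16; -0.18 without the step 4 array of slide 1). None passed in the 5 fits. Dusp6 and Egr1 passed with a replicate block on the 4 arrays of slides 1 and 3 (limma adjusted p = 0.0404 and 0.0351), a setting chosen after the data were seen. The phosphatase gene Dusp4 went from -0.04, 0.99 and 0.48 to -1.18, -0.30 and -1.73 without overlap (difference -1.55, SE 0.52, limma adjusted p = 0.364; 0.0816 in the paired fit). Dusp6, which encodes the phosphatase of ERK, had -0.91, -1.31 and -1.10 (paired fit adjusted p = 0.0592, limma). The Sprouty genes, inhibitors of receptor tyrosine kinase signalling, had -0.74, -1.22 and -0.93 for Spry4 and -0.65, -0.84 and -1.05 for Spry1, and the ETS factor gene Etv4 -0.63, -1.13 and -1.72. Slide 2 was no exception here, and its median was the lowest of the slides. Etv5 differed, with 0.07, -0.87 and -0.16. The exceptions upwards were the immediate early genes Egr1, at 1.33, 0.05 and 1.68, and Fos, at 0.89, 0.32 and 1.55, and the phosphatase gene Dusp14.

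**Figure D2:**
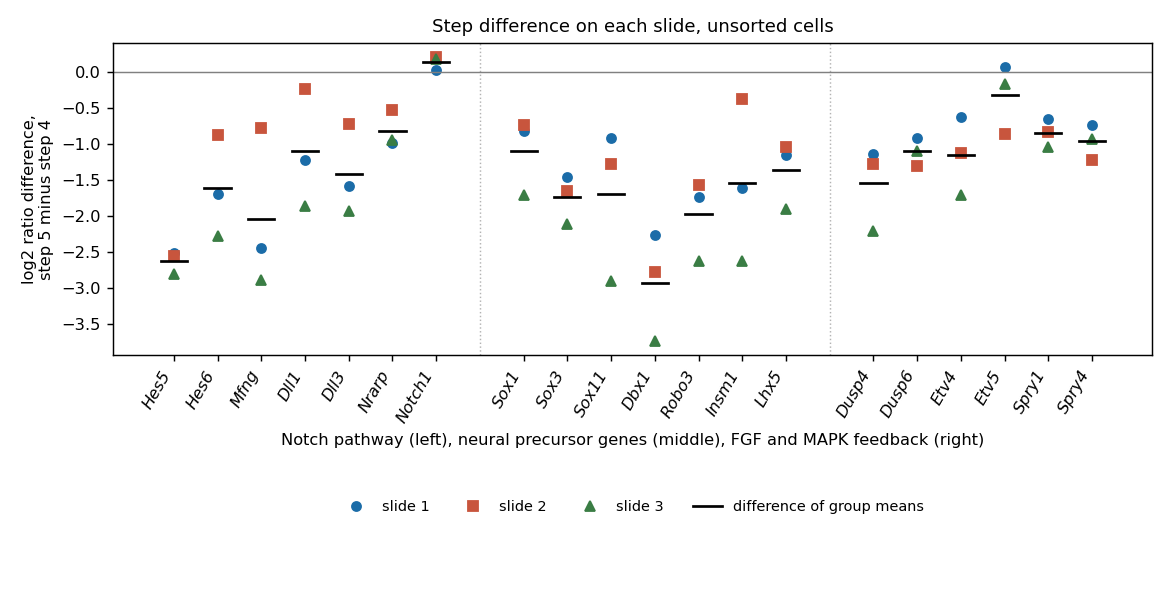
Difference of the log2 ratio, step 5 minus step 4 (y axis), on each slide (symbols) and between group means (bars) for genes (x axis) of the Notch pathway, of neural precursors and of FGF and MAPK feedback. Hes5 lies between -2.80 and -2.52 on the 3 slides, and Notch1 and Etv5 are the genes with a slide above 0.

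No gene of the neuronal cytoskeleton list passed in the 5 fits, and the slides differed in the sign or size of most values. Tubb3, the neuronal tubulin, was at 0.99, -1.11 and 1.80 and then at 1.17, -1.67 and 0.08. Slide 1 was slightly higher and slide 3 lower, so the slides disagreed in sign (0.18, -0.56 and -1.73; difference -0.70, SE 0.94, limma adjusted p = 0.939). Dcx, of migrating neurons, had -0.19, -0.86 and -2.18, and Map2, of dendrites, -0.20, -0.62 and -1.37. The intermediate filament gene Nefm had -1.10, -1.01 and -2.55 and was below without overlap. Over the 30 cytoskeletal genes the slide medians were 0.17, -0.22 and -0.87, with 11 lower and 2 higher on all 3 slides.

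Ncam1, the carrier of polysialic acid, was at 2.66, 1.59 and 3.41 and 2.88, 1.62 and 2.86 (difference -0.10, SE 0.43), and the groups overlapped. Its sialyltransferase genes had -0.08, -0.70 and -0.43 for St8sia2, which turned to 0.15 on average with Cy5 quantile-normalized alone, and 0.05, -1.02 and -1.86 for St8sia4. Gad1, which makes GABA, had 1.69, 1.17 and -1.34, with slide 3 far above the others at step 4 (-1.28, -1.85 and 1.73). Of 33 synaptic genes 7 were higher on all 3 slides, near the 23.4% of all genes, and 0 lower, with slide medians of 0.45, 0.15 and -0.10. Snap25, of the release machinery, went from 0.48, 0.50 and 0.74 to 1.41, 1.12 and 1.56 without overlap and rose without replicate 2 (0.88, SE 0.14, limma adjusted p = 0.034). Syn3, of synaptic vesicles, had 1.03, 1.01 and 0.78 (paired fit adjusted p = 0.0592, limma).

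Glial genes were higher at step 5, many of them with slide 2 far behind the others. Gfap, the astrocyte filament protein, had the largest mean difference of the genes named here, 3.73 (SE 1.05, limma adjusted p = 0.273). Its ratio was 0.11, -0.41 and 0.14 at step 4, where it was above background on 2 of 3 arrays, and 4.92, 0.59 and 5.51 at step 5. The slides 1 and 3 arrays came to lie about as far above mESC as each other, and that of slide 2 barely above. All 3 probes of Gfap were higher. Without replicate 2 Gfap rose by 5.09 (SE 0.57, limma adjusted p = 0.00728).

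Of 28 astrocyte genes 19 were higher on all 3 slides and 3 lower, against 23.4% and 20.4% of all genes. In the list 7 were above without overlap, against 7.39%. The list median was 0.76 (0.91, 0.29 and 0.92 on slides 1, 2 and 3). Aqp4, the water channel of astrocyte endfeet, went from 0.61, 0.43 and 0.66 to 3.61, 0.62 and 4.48, and on slide 2 it hardly moved. Kcnj10, their potassium channel and no member of the list, went from -0.30, -0.81 and -0.65 to 3.84, 0.40 and 2.80 and rose without replicate 2 (3.80, SE 0.60, limma adjusted p = 0.0301). Ndrg2 had slide differences of 2.41, 0.51 and 2.72, the matrix protein gene Sparcl1 1.98, 1.04 and 1.11 and the glutamate transporter gene Slc1a3 0.49, 0.81 and 0.77. In both of the latter slide 2 was close to slide 3, as it was in the gliogenic factor gene Nfix (0.79, 0.82 and 0.92). Aldh1l1, a defining astrocyte marker, had 0.22, 0.62 and 0.67.

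Oligodendrocyte lineage genes followed the same split. Over 21 genes the slide medians were 0.64, -0.01 and 0.43, with 7 higher and 2 lower on all 3 slides. Gpr17, a receptor of oligodendrocyte precursors, went from 0.23, 0.06 and 0.21 to 3.17, -0.14 and 3.15, so that slides 1 and 3 were alike and slide 2 did not move. It rose without replicate 2 (2.94, SE 0.21, limma adjusted p = 0.00115), as did Bcas1 (2.19, SE 0.39, limma adjusted p = 0.0476). Sox10, the factor of the lineage, had 1.34, 0.23 and 1.41, and Olig1 0.29, -0.81 and -0.12.

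Some genes of motile cilia, which ependymal cells carry, were higher, mainly on slides 1 and 3. Foxj1, the master factor of motile cilia, went from 0.48, 0.44 and 0.40 to 2.05, 1.05 and 2.60 and rose without replicate 2 (1.89, SE 0.28, limma adjusted p = 0.0266). The dynein gene Dynlrb2 had 2.45, -0.59 and 3.04 and the radial spoke gene Rsph1 1.03, 0.25 and 1.21, and both rose without replicate 2 (limma adjusted p = 0.0231 and 0.0385). Of 16 choroid plexus and cilia genes 8 were higher and 2 lower on all 3 slides (median 0.45). Of the cilia families, 2 of 8 Dnah genes and 7 of 20 Cfap genes were higher on all 3 slides, with medians of 0.18 and 0.13, against 23.4% of all genes.

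The widest shift among the lists was that of mesenchyme, whose genes mark fibroblasts and other connective tissue cells. Of 31 genes 24 were higher on all 3 slides, against the 23.4% of all genes given above, and 1 was lower. They included 15 above without overlap and 7 at least 2-fold higher on each slide, against 7.39% and 0.34% of all genes. Past the fit without replicate 2 were 6, against 0.699% of all genes for rises. The median difference of the list was 1.02, with 1.27, 0.42 and 1.69 on slides 1, 2 and 3. Its levels had medians of 1.64, 1.27 and 1.16 at step 4 and 2.52, 2.03 and 3.11 at step 5. Mesenchymal genes were thus above mESC at step 4 already.

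Col1a1, the main chain of type I collagen, went from 4.92, 4.43 and 4.64 to 7.50, 5.92 and 8.06 (difference 2.50, SE 0.61, limma adjusted p = 0.209; 0.0467 on 4 arrays without replicate 2). Dcn, the matrix proteoglycan decorin, went from 3.19, 1.65 and 3.32 to 6.37, 3.50 and 6.69, and rose without replicate 2 (3.27, SE 0.18, limma adjusted p = 0.000361). For Dcn the slide 2 array of step 5 lay only just above the highest step 4 array. Lum, a relative of decorin, had 3.80, 2.09 and 3.47, and Ogn, another, 2.46, 1.88 and 3.62. Fap, of activated fibroblasts, had 2.60, 1.52 and 2.74, and Thy1, a surface protein of fibroblasts and also of neurons, 2.20, 0.93 and 2.06. Both rose without replicate 2, Fap by 2.67 (limma adjusted p = 0.00854) and Thy1 by 2.13 (limma adjusted p = 0.00723). Lox, which cross-links collagen, went from 0.23, 0.14 and 0.12 to 1.65, 1.60 and 2.48, one of the few with slide 2 close to slide 1.

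**Figure D3:**
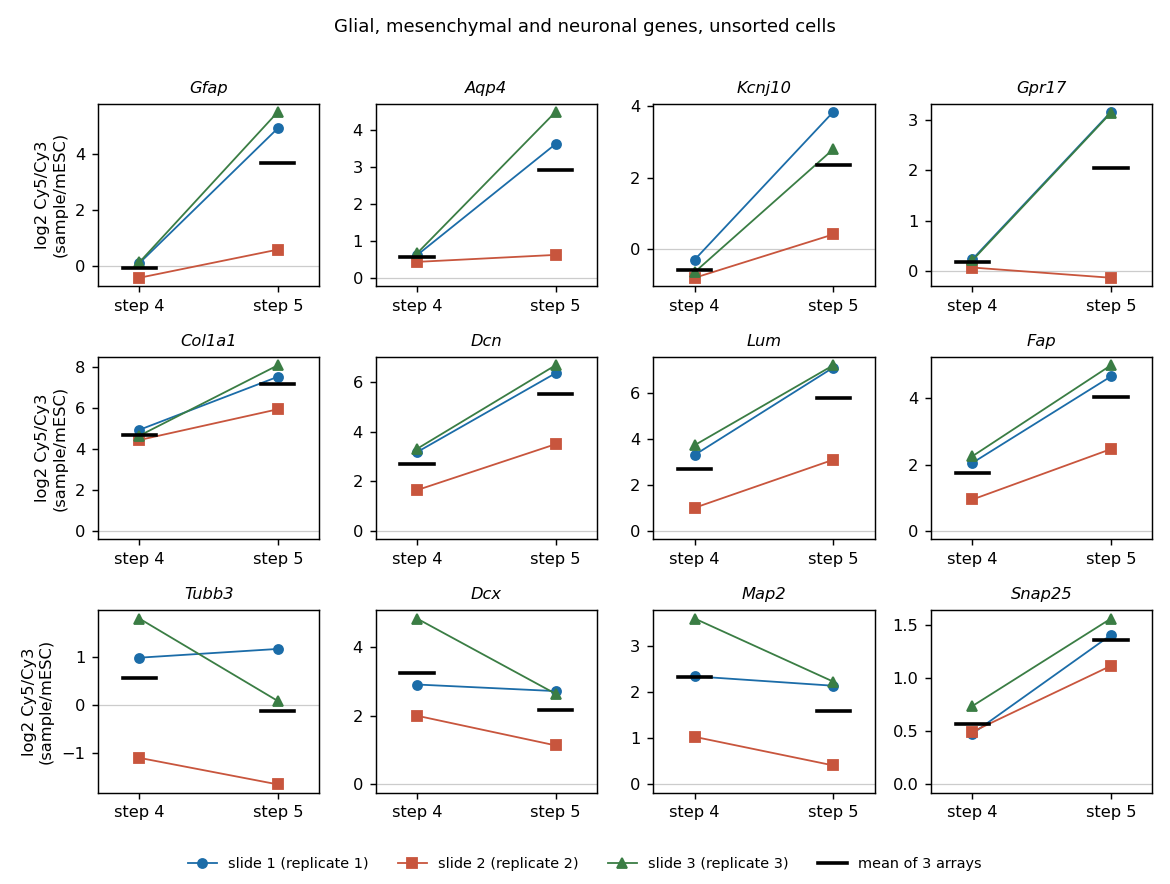
Log2 ratio of sample to mESC (y axes, each gene on its own scale) at step 4 and step 5 (x axis) for glial (top), mesenchymal (middle) and neuronal (bottom) genes; lines join the arrays of 1 slide and black bars are means of 3 arrays. Gfap reaches 4.92 and 5.51 on slides 1 and 3 and 0.59 on slide 2, while Col1a1 is higher on all 3 slides and Tubb3 has no common direction.

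Of 24 collagens 17 were higher on all 3 slides and 0 lower (median 0.79; 0.92, 0.23 and 1.20). Col3a1, of loose connective tissue, had 1.52, 1.38 and 1.82 and rose without replicate 2 (1.67, SE 0.21, limma adjusted p = 0.0134), as did Col6a2 (1.65, limma adjusted p = 0.00723) and Col14a1 (2.95, limma adjusted p = 0.00515). Collagen hydroxylases use ascorbate, which had been added to the step 5 medium. Of 25 collagen processing and ascorbate-dependent enzymes 14 were higher and 0 lower on all 3 slides, with a median of 0.28. The prolyl hydroxylase genes P4ha1 (0.96, 0.29 and 1.50) and P4ha2 (1.02, 0.66 and 1.22) and the procollagen protease enhancer gene Pcolce (1.02, 0.44 and 1.44) were among them. None passed in the 5 fits. P4ha2 and Pcolce passed with a replicate block on the 4 arrays of slides 1 and 3 (limma adjusted p = 0.0371 and 0.0436), a setting chosen after the data were seen. Integrins, laminins and basement membrane genes had 19 of 29 higher and 4 lower. Itga7, a laminin receptor chain, went from 0.11, 0.28 and -0.47 to 1.38, 1.80 and 2.05 without overlap and rose without replicate 2 (1.89, SE 0.33, limma adjusted p = 0.0425).

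Genes of sterol synthesis were lower. Of 35 cholesterol and fatty acid genes 26 were lower on all 3 slides, against 20.4% of all genes, and 2 higher, with a median of -0.42 (-0.22, -0.33 and -0.75). None passed in the 5 fits, and most sizes were small. Lss, which closes the sterol rings, had -0.47, -0.58 and -1.13, and the desaturase gene Scd1 a mean difference of -1.04. Abca1, which exports cholesterol, was the counterpart. It went from 1.96, 1.89 and 1.66 to 3.19, 3.25 and 3.77, at least 2-fold higher on each slide (difference 1.56, SE 0.30, limma adjusted p = 0.138).

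B27 is a supplement with hormones and antioxidants, and lists of genes that answer such factors were set out. Of 22 glucocorticoid response genes 13 were higher and 1 lower on all 3 slides (median 0.36; 0.35, 0.17 and 0.44). Cebpd, a factor induced by steroids and inflammation, had 1.03, 0.63 and 2.38. Of 12 thyroid hormone genes 5 were higher and 0 lower on all 3 slides, with a median of only 0.09. Thrsp (2.51, 1.72 and 2.30) and the corepressor gene Hr (1.72, 0.87 and 1.13) were among those higher. Of 31 antioxidant genes 14 were higher and 5 lower, with a median of 0.11. Of all genes 23.4% were higher and 20.4% lower on all 3 slides. The selenoprotein genes Gpx4, which reduces lipid peroxides, and Selenop, which carries selenium, were even over the slides, with 1.13, 0.84 and 1.12 and 0.93, 0.88 and 0.76. Sod3, the extracellular superoxide dismutase, rose without replicate 2 (1.78, SE 0.28, limma adjusted p = 0.0301).

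Hypoxia and glycolysis genes had slide medians of 0.83, -0.02 and 0.84, so that slide 2 did not share the difference. Bnip3, a mitophagy gene, had 1.54, 0.51 and 1.77, and the peptide gene Adm 1.49, 0.62 and 2.03. Interferon and MHC class I genes were higher on all 3 slides for 25 of 32 and lower for 0 (median 0.45; 0.62, 0.14 and 0.56). Ifi27, an interferon-induced gene, went from -2.75, -2.05 and -1.29 to -0.93, -1.27 and 0.15, and the immunoproteasome gene Psmb8 had 1.11, 0.15 and 1.40. Gbp2, a guanylate-binding protein gene, rose without replicate 2 (1.58, SE 0.28, limma adjusted p = 0.0467), while on slide 2 it had -0.22. Of 11 blood and microglia genes 2 were higher and 3 lower on all 3 slides, with a median of -0.02. Among microglial genes, Csf1r had slide differences of 0.11, -0.15 and 0.26. Itgam had 0.97, 0.63 and 0.73 and rose without replicate 2 (limma adjusted p = 0.0328).

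**Figure D4:**
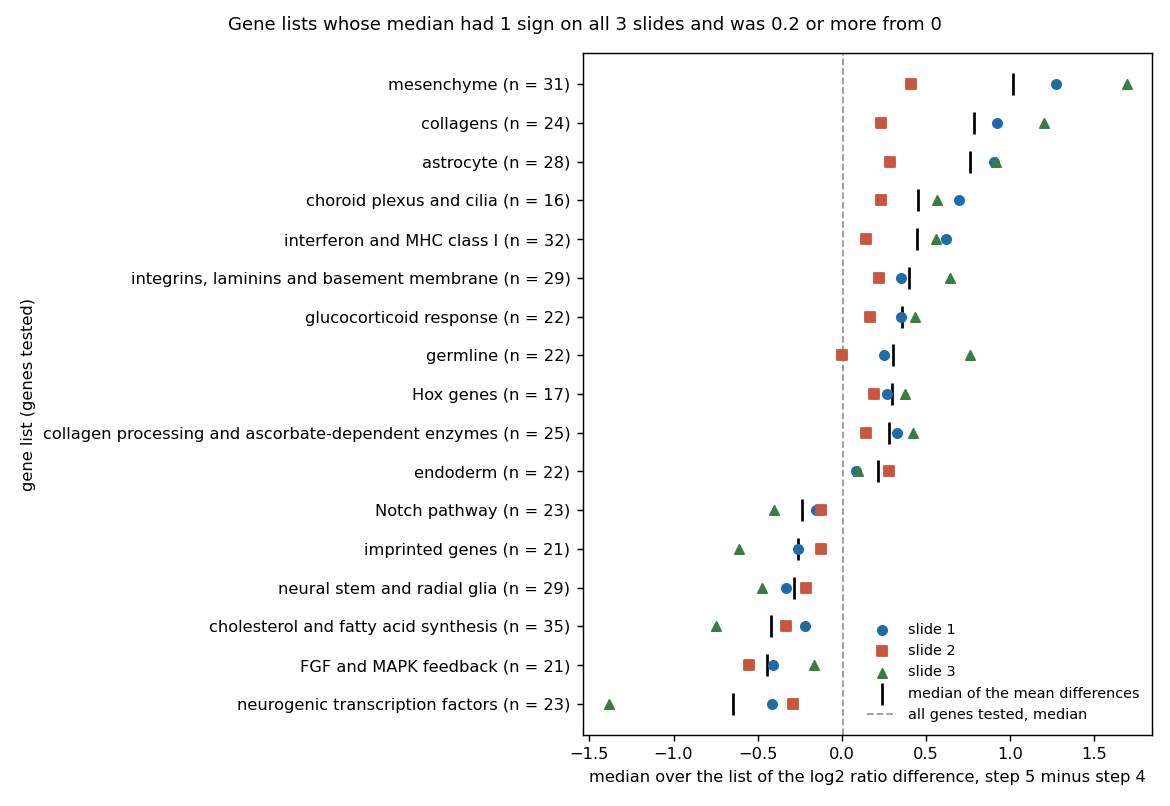
Median over a gene list of the log2 ratio difference, step 5 minus step 4 (x axis), on each slide (symbols) and of the mean differences (bars), for the lists (y axis, with the number of genes tested) whose median had 1 sign on all 3 slides and was 0.2 or more from 0. Mesenchyme is highest with 1.02 and the neurogenic factors lowest with -0.65; slide 2 is nearest to 0 in most lists but is the lowest in FGF and MAPK feedback.

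Pluripotency genes as a group gave no common direction. Of 34 there were 12 higher and 8 lower on all 3 slides, with level medians of -0.68, -0.73 and -0.98 at step 4 and -0.69, -0.87 and -0.86 at step 5. Nanog had -0.08, 0.31 and 0.79. Mitosis genes had slide medians of -0.01, -0.60 and 0.07, with 10 of 29 lower and 0 higher on all 3 slides. Mki67, the proliferation marker, had 0.12, -0.80 and -0.17, so slide 2 had by far the largest difference.

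Germline genes differed one by one. Of 22 in the list 7 were higher and 2 lower on all 3 slides, against 23.4% and 20.4% of all genes. The list median was 0.30 (0.25, 0.00 and 0.76 on slides 1, 2 and 3). Aurkc, Rpl39l and the Rhox2 genes below are not in that list. Stra8, the retinoid-induced gene of meiotic entry, went from 0.17, -1.11 and -0.75 to 3.57, 1.29 and 4.07, without overlap, and rose without replicate 2 (4.11, SE 0.69, limma adjusted p = 0.0385). Dazl, an RNA-binding protein of germ cells, had 1.95, 0.91 and 2.52. Aurkc, the meiotic Aurora kinase, and Rpl39l, a testis ribosomal protein gene, were far below mESC at step 4 and near it at step 5 on slides 1 and 3 only. Aurkc went from -2.78, -3.72 and -2.94 to -0.41, -2.67 and 0.60 and Rpl39l from -3.63, -3.80 and -3.50 to -0.12, -3.11 and 0.10, and both rose without replicate 2 (limma adjusted p = 0.00649 and 0.0109). Probes of the X-linked Rhox2 genes, near-identical copies that hybridisation may not separate, behaved alike. Rhox2h had 3.25, -0.61 and 2.56 and Rhox2c 3.00, -0.55 and 2.40, and both rose without replicate 2 (limma adjusted p = 0.0035 and 0.00129). Of all 19 Rhox genes tested 5 were higher and 2 lower on all 3 slides, with mean differences from -0.98 to 1.73.

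Zscan4 and its companions, which are known from the 2-cell embryo and flicker on in few stem cells at a time, stood out among genes picked after their values were seen. All 4 Zscan4 genes tested were higher on all 3 slides, as were 12 of 16 Pramel genes and both Tcstv genes. Zscan4f went from 0.28, -1.77 and -2.55 to 1.54, 1.03 and 0.83, and Gm13043 from -0.06, -2.44 and -2.92 to 1.05, 0.55 and 0.39. On slide 1 the step 4 value was already at the mESC level, and on slides 2 and 3 it was well below. At step 5 all 3 slides had reached or passed mESC. AF067061 (-0.29, -1.87 and -2.47 and then 0.78, 1.09 and 0.43) and Tcstv1 (-0.52, -1.10 and -1.26 and then 0.11, 0.46 and -0.03) showed the same order of slides at step 4. The family medians per slide were 0.90, 2.38 and 2.43 for Zscan4 and 0.61, 0.59 and 0.66 for Pramel. These genes are near-identical copies, so a probe may report several of them and the members are not separate measurements. None passed in the 5 fits, and in the paired fit Zscan4f had an adjusted p of 0.0918 (limma). Without the step 4 array of slide 1, Zscan4c, Zscan4e, Gm13043, AF067061, Pramel31 and Tcstv1 rose (limma adjusted p between 0.00452 and 0.0188). That array held the highest of the step 4 values given above, so leaving it out widens the difference. Those calls are therefore no separate support for a rise. Tcstv1 also rose with slide as a random block and without the step 5 array of slide 2.

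**Figure D5:**
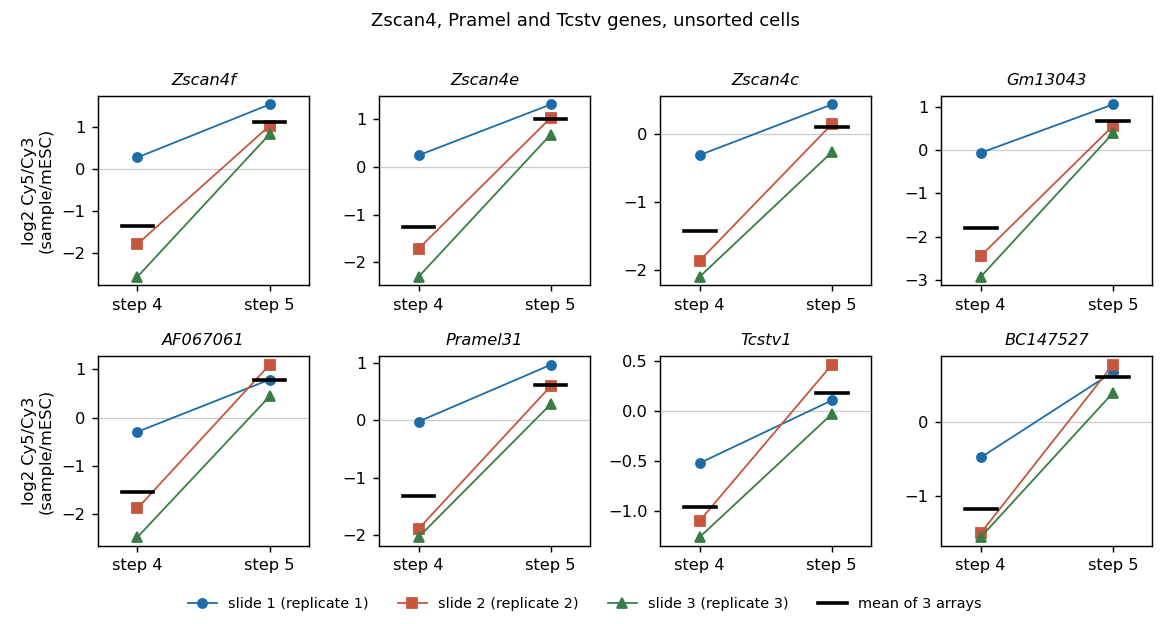
Log2 ratio of sample to mESC (y axes, each gene on its own scale) at step 4 and step 5 (x axis) for Zscan4, Pramel, Tcstv and related genes; lines join the arrays of 1 slide and black bars are means of 3 arrays. Slide 1 starts near 0, slides 2 and 3 start below, as for Zscan4f at -1.77 and -2.55, and the 3 slides end close together.

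Hox genes were higher without overlap for 7 of 17, against 7.39% of all genes. The list median was 0.30, which was 0.67 in the scanner's own log ratios. Hoxc4 went from 0.25, 0.36 and 0.12 to 0.88, 1.39 and 1.11 and Hoxb13 from -0.56, -0.21 and -0.87 to 0.68, 0.75 and 0.29. Of 21 imprinted genes 9 were lower and 2 higher on all 3 slides. Mest, a paternally expressed gene of mesoderm and brain, went from 3.48, 2.42 and 3.00 to 1.63, 1.27 and 1.23, and the growth inhibitor gene Cdkn1c from 2.28, 2.87 and 3.04 to 1.52, 1.93 and 1.95. Dlk1, a non-canonical Notch ligand, had 0.73, 0.73 and 1.18. In endoderm, Afp, of yolk sac and liver, had 0.57, 3.84 and 1.52 at step 4 and 1.62, 6.70 and 4.03 at step 5. It was highest on slide 2 at both steps, and the list had a median of 0.22, which was -0.27 without the step 5 array of slide 2, -0.07 without the step 4 array of slide 1 and 0.55 without the step 4 array of slide 2.

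The same step in PSA-NCAM-enriched cells was set beside that of the unsorted cells, which shares no sample with it. In enriched cells 773 genes rose and 538 fell between the steps at an adjusted p of 0.05 on the 12 arrays (3.75% and 2.61%). The test of the difference between the step differences called 0 genes, with 1426 (6.92%) at an unadjusted p under 0.05, and 0 with the replicate block (2109, 10.2%). Of the other settings some called 0 genes too and some between 1 and 17, among them 15 with slide as a random block and 9 without replicate 2 on 10 arrays. In the fits with 0 calls no gene is shown to respond otherwise in unsorted than in enriched cells, also where only the latter passed.

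The 6 genes with the smallest p of such a difference are given with both values. Apoe, a lipid carrier made by glia, had a step difference of 0.74 in unsorted and 4.84 in enriched cells (difference -4.10, SE 0.55, limma adjusted p = 0.057). Ugt8a, of myelin lipid synthesis, had 0.33 and 3.18 (limma adjusted p = 0.0551). Ppp1r1b had -0.04 and 2.01, and Mt1, a metallothionein gene, 0.09 and 2.41. For Ppp1r1b and Mt1 the small unsorted value changed sign with arrays centred or scaled. Tead2 had -0.28 and -1.51, and Tgif2 0.22 and -0.92.

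Side by side, the list medians were 0.76 in unsorted and 1.60 in enriched cells for astrocytes, and for the oligodendrocyte lineage 0.43 and 1.39. For the neuronal cytoskeleton they were -0.33 and 0.18, for mitosis -0.15 (0.03 without replicate 2) and -0.96, and for mesenchyme 1.02 and 0.62. Their differences were not tested as lists. Hes5 had -2.63 in unsorted and -0.48 in enriched cells (difference -2.15, SE 1.31, limma adjusted p = 0.843), and Mgp 2.86 and 5.07.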

How the data were processed

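Red (Cy5) and green (Cy3) mean and background intensities were read from the deposited scanner files, which Agilent Feature Extraction 10.7.3.1 (slides 1 and 3) or 10.5.1.1 (slide 2) wrote, per the file headers. The authors' deposited value table equalled the scanner's log10 ratio, rescaled to log2, within 0.001 for most probes and was not tested further. Intensities were corrected with normexp (offset 50) and loess-normalized to a log2 Cy5/Cy3 ratio, without control spots (1377 of 44397) and flagged outliers, and replicate spots were averaged by probe. Probes stayed in where Cy5 was well above background on each of the 3 arrays of 1 or both control groups, and the brightest probe stood for a gene, leaving 20608 genes, of which 58 lack a value on some control array and are fitted on the rest. Differences were fitted with limma 3.58.1 in R 4.3.3 over 12 arrays with 4 group means, and p-values were adjusted over all genes by Benjamini-Hochberg. Only the fits of 12 arrays, with and without the replicate block, were tested on simulated data, which held no slide effect. The paired fit and the fits without replicate 2 were not tested in this way. Same-numbered step 4 and step 5 arrays, which share a slide, deviated together (r of deviations 0.71, 0.75 and 0.47), so values with the replicate number as a block are given too. The p-values measure the spread between the samples of each fit. In the fits of 12 and 10 arrays this includes the enriched arrays. Their median gene SD was 0.17 at both steps, against 0.19 at step 4 and 0.22 at step 5 in control arrays.

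The members and gene lists were chosen with earlier results of these data known. Named genes include 12 in each direction, of which those past the paired fit came first. Since too few passed to fill that number, the rest were added by smallest unadjusted p in the fit of 12 arrays. They were taken among genes with the same sign on every slide, so their agreement between slides was a condition of choice and not a finding. Further named are up to 2 of each list by smallest p (up to 4 where more passed) and 18 genes always given. Others are the 6 with the largest range between slides and the 6 with the smallest p of the difference from enriched cells. A further 73, among them Dcn, Fap, Kcnj10, Aurkc, Robo3, Dusp6, Gpr17, Foxj1 and the Zscan4 group, were chosen after their values were seen. Probe positions are mm9 as the scanner files give them. Some genes are not reported here.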

Additional observations from a re-analysis of the deposited data

How the results depend on the processing

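Counts of genes higher and lower were 3 and 0 in the scanner log ratios, 7 and 3 with arrays scaled to a common spread, 1 and 0 with the replicate block on 12 arrays, 3 and 2 with the replicate block on the 6 control arrays, and 38 and 9 with slide as a random block. Without replicate 2 they were 144 and 29 on 10 arrays and 58 and 2 on 4 arrays. In settings chosen after seeing the data they were 66 and 10 without replicate 2 of all groups and 529 and 81 without replicate 2 with the replicate block. With single arrays left out they ranged from 0 to 341 higher and from 0 to 44 lower. Genes differing from enriched cells numbered 2 without background correction, 1 with median centring, 7 with Cy5 alone, 7 with the mean over probes, 5 with a trend and robust fit, 15 with the random block and 9 without replicate 2 on 10 arrays, and 0 to 17 with single arrays left out. The Hox median was 0.67 in scanner log ratios and 0.40 with median centring, the neural stem median -0.59 with arrays scaled and -0.42 in each fit without replicate 2, and the endoderm median 0.36 with arrays scaled. With single arrays left out, medians ranged from -0.27 to 0.55 for endoderm, -0.62 to -0.18 for FGF and MAPK feedback, -0.52 to -0.18 for neural stem and radial glia, 0.21 to 0.43 for collagen processing and ascorbate-dependent enzymes, 0.11 to 0.73 for integrins and laminins and basement membrane and 0.58 to 1.31 for collagens. The causes were not tested. Of 900 list medians under alternatives other than single arrays left out, 55 moved by more than the spread between slides. Each group had 3 arrays, and the slides differed. The filter on Cy5 above background kept 25910 of 39429 probes, and of the genes so kept 50 were dim on all step 4 arrays.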
